A study of Mus musculus with 14 samples.

Results

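The change between 6 h and 24 h of 4-hydroxytamoxifen (4OHT) in the presence of IL-7 was measured on 4 microarrays of the mouse pre-B cell line BH1-Bcl2-Ik1ER. Cells exposed to 4OHT for 24 h (2 arrays) were compared with cells exposed for 6 h (2 arrays), 1 array of each time from each of 2 independent experiments. All 19938 genes with a probe set of a single symbol were included, out of 19938 such genes and 14 arrays in the whole series, and the brightest probe set stood for a gene. BH1 is labelled Ikaros-deficient, and retroviruses gave it Bcl2, which blocks apoptosis, and a protein joining Ikaros to the estrogen receptor, whose activity 4OHT switches on. Every group shared these transgenes. The 24 h and 6 h groups received 100 nM 4OHT and 8% medium conditioned by IL-7-secreting cells. Set beside them were cells with 4OHT but without the conditioned medium at 24 h and at 6 h, cells with IL-7 but without 4OHT at 24 h, and cells at time 0, with 2 arrays each. The 2 arrays of cells with neither 4OHT nor IL-7 at 24 h entered the fit and no comparison.

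Ikaros, a lymphocyte transcription factor with zinc fingers, can activate or repress genes, and it binds DNA around the letters GGGAA. IL-7 signals through STAT5 and keeps early B cell precursors dividing. Pre-B cells carry a receptor built of an immunoglobulin heavy chain and a surrogate light chain, and as they mature they leave the cell cycle and join the gene segments of their light chains.

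The estrogen receptor part and the 4OHT were not tested apart, since no cells without the fusion were measured. The labels hold no array at 6 h without 4OHT, so length of culture and length of 4OHT exposure cannot be told apart in the 24 h against 6 h comparison. BH1-Bcl2-Ik1ER is 1 line, sorted for cells that took up both viruses. Each value below is on the log2 scale of the deposited table, and a difference of 1 on that scale is a factor of 2. Differences are given ± their standard error (SE), with 2 arrays per group throughout, and a gene is said to have passed at a limma adjusted p under 0.05 over all 19938 genes. As bulk values, they do not tell fewer cells of a type from less RNA per cell. The number of arrays limits the precision, and the median SE was 0.091.

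Array medians lay between 7.25 and 7.37 in the 4 arrays, and replicate arrays correlated at 0.9980 at 24 h and 0.9971 at 6 h. Of the pre-B markers, Igll1, a surrogate light chain, was read at 13.57 and 13.61 after 24 h, against 13.59 and 13.67 after 6 h, and Pax5, Ebf1, Cd79a, Cd79b and Il7r all lay above 12 in the 4 arrays. Vpreb2, another surrogate light chain, fell by 0.42 ± 0.08 (adjusted p = 0.0129), and Cd79a was 0.30 ± 0.09 higher after 24 h (adjusted p = 0.0935, and 0.0376 with the experiment number as a block in the fit). Ighm, the heavy chain constant region, was read at 7.16 and 7.14 after 24 h, against 7.26 and 7.24 after 6 h, below the median of 7.33 over all values. Ikzf1, which encodes Ikaros, stood at 13.09 and 13.10 after 24 h, against 13.03 and 13.14 after 6 h, a difference of 0.015 ± 0.071. Whether its probe set reads the fusion, the line's own transcript or both was not tested. Bcl2 differed by 0.03 ± 0.07. Of all 19938 genes, 10502 exceeded the overall median at either time. Few markers of most other cell types did, namely 3 of 16 for T cells, 1 of 14 for natural killer cells, 2 of 18 for myeloid cells, 3 of 11 for erythroid cells and megakaryocytes and 3 of 15 for stromal cells. For plasma cells 7 of 11 markers did, a share near that of all genes.

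Between 6 h and 24 h of 4OHT with IL-7, 325 genes rose (1.63% of those tested) and 404 fell (2.03%), 729 in all (3.66%). Of these, 34 rose and 29 fell by at least 2-fold. The median of all differences was -0.01. With the experiment number as a block in the fit, 912 genes rose and 907 fell, and all 729 genes were among them. List counts with the block for 24 h against 6 h are to be read against these 912 and 907 of 19938 genes. The differences in the single experiments correlated at r = 0.655 across the 19938 genes, which are not independent replicates. Leaving out single arrays lowered both counts by over 1.5 times, except for the rises without the 6 h array of experiment 1. Such fits leave 1 array in a group, which widens the SE, and have no block. Without the 24 h array of experiment 1, 80 genes rose and 127 fell, and without that of experiment 2, 150 rose and 160 fell. Without the 6 h array of experiment 1, 287 rose and 215 fell, and without that of experiment 2, 118 rose and 231 fell.

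Fcrla, S1pr1 and Cpm had the largest rises. Fcrla, an intracellular Fc receptor-like protein of B cells, was read at 10.53 and 10.20 after 24 h, against 8.66 and 8.40 after 6 h. S1pr1, the sphingosine-1-phosphate receptor that guides lymphocytes out of tissues, was read at 8.94 and 8.51 after 24 h, against 7.04 and 6.91 after 6 h. Spib, an Ets family transcription factor of B cells, was read at 12.20 and 12.18 after 24 h, against 10.72 and 10.85 after 6 h. The 24 h arrays lay above the 6 h arrays without overlap in all 3 genes. Fcrla rose by 1.84 ± 0.14 (adjusted p = 5.8e-05), S1pr1 by 1.75 ± 0.13 (adjusted p = 5.95e-05) and Spib by 1.41 ± 0.10 (adjusted p = 4.95e-05). Siglecg, a sialic acid-binding inhibitory receptor, rose by 1.27 ± 0.18, with 11.11 and 11.10 after 24 h, against 9.55 and 10.12 after 6 h. Cpm, a membrane carboxypeptidase, rose by 1.72 ± 0.24, with 11.86 and 11.26 after 24 h, against 10.06 and 9.63 after 6 h.

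Of the other large rises, Ralgps2, an exchange factor for Ral GTPases, rose by 1.69 ± 0.14, and Pfn2, an actin-binding profilin, by 1.58 ± 0.22. Ifi209, of the interferon-inducible HIN-200 family, rose by 1.64 ± 0.20, with 8.02 and 7.40 after 24 h, against 6.18 and 5.97 after 6 h. Serinc5, a membrane protein that in human cells restricts HIV-1, rose by 1.43 ± 0.17, and Rubcnl, which acts in autophagy, by 1.31 ± 0.11. Ero1b, an oxidase of the endoplasmic reticulum, rose by 1.28 ± 0.13. Tmc7 and Tmc5, members of the transmembrane channel-like family, rose by 1.38 ± 0.19 and 1.37 ± 0.25. Tmc5 no longer passed without the 24 h array of experiment 1 (adjusted p = 0.113) or the 6 h array of experiment 2 (adjusted p = 0.0615), and these 14 genes passed in every other alternative fit.

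Mylk4, Mpzl2, Mmp13 and Cish had the largest falls. Cish, the STAT5-induced inhibitor of cytokine receptors, was read at 8.78 and 8.57 after 24 h, against 10.76 and 10.67 after 6 h. Mpzl2, an adhesion molecule of the immunoglobulin superfamily, was read at 9.02 and 8.94 after 24 h, against 10.82 and 11.34 after 6 h. Igfbp7, a secreted insulin-like growth factor-binding protein, was read at 7.60 and 7.24 after 24 h, against 9.43 and 8.94 after 6 h. In each the 24 h arrays lay below the 6 h arrays without overlap. Cish fell by 2.04 ± 0.08 (adjusted p = 3.97e-07), Mpzl2 by 2.10 ± 0.29 (adjusted p = 0.00211) and Igfbp7 by 1.77 ± 0.18 (adjusted p = 0.000381).

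Mylk4, of the myosin light chain kinase family, fell by 2.11 ± 0.32, with 6.78 and 6.78 after 24 h, against 8.54 and 9.25 after 6 h. Myom1, a structural protein of the muscle sarcomere, fell by 1.40 ± 0.12, and Eno3, the muscle form of enolase, by 1.36 ± 0.13. Mmp13, a collagenase, fell by 2.08 ± 0.39, with 6.77 and 6.37 after 24 h, against 9.21 and 8.10 after 6 h. Dock9, an exchange factor for Cdc42, fell by 1.73 ± 0.13 and Tbx19, a T-box transcription factor known from the pituitary, by 1.60 ± 0.10. Ifitm3, an interferon-induced protein that hinders virus entry, fell by 1.56 ± 0.11 and Sema6d, a semaphorin, by 1.26 ± 0.17. The remaining falls were Stum (-1.60 ± 0.31), the long noncoding RNA Lncenc1 (-1.23 ± 0.14) and Fam135b (-1.22 ± 0.20). Stum missed the threshold without any 1 of the 4 arrays (adjusted p 0.0693 to 0.115), Mmp13 without 3 of them (0.0593 to 0.0978) and Fam135b without the 24 h array of experiment 1 (0.0557). Fam135b has 5 probe sets, and in a fit over single probe sets their differences ran from -1.97 to -0.35, with 4 of them passing.

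**Figure D1:**
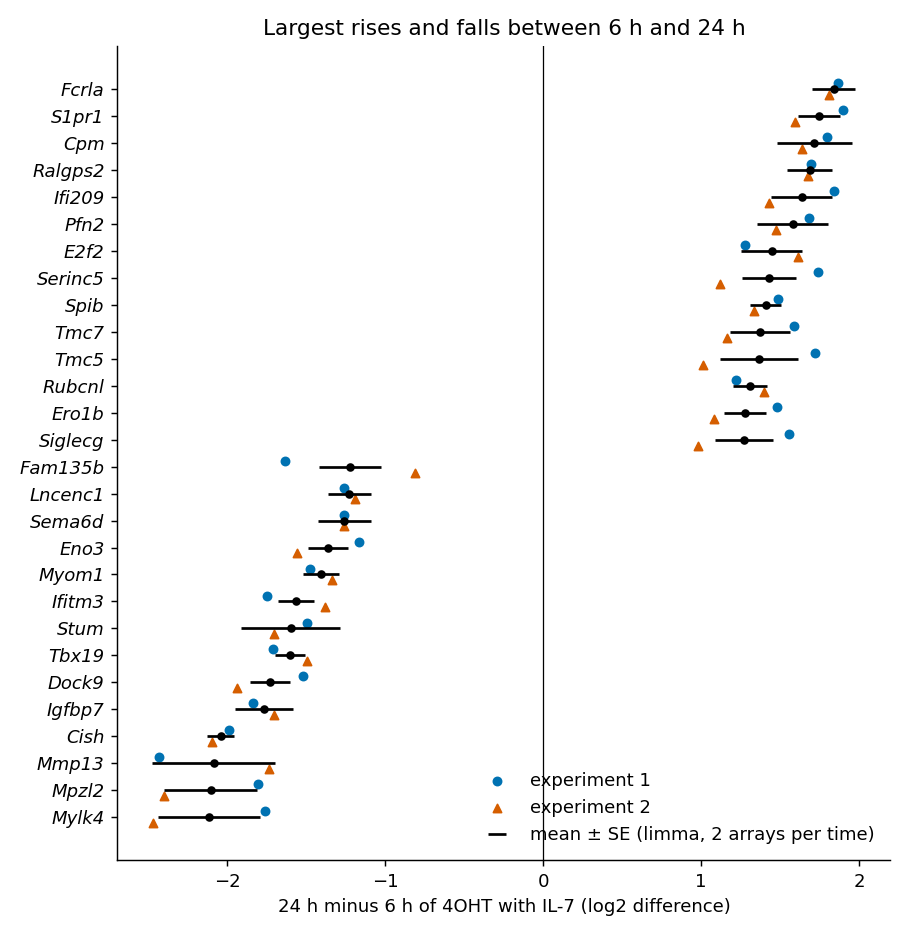
The 14 largest rises and 14 largest falls between 6 h and 24 h of 4OHT with IL-7, as log2 differences (24 h minus 6 h). Black points and bars are the mean ± SE from limma, blue circles experiment 1 and orange triangles experiment 2. Both experiments lie on the same side of 0 for each gene, from Fcrla at 1.84 to Mylk4 at -2.11.

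These genes took several courses when the levels at time 0 and at 24 h without 4OHT were set beside them. Comparisons that share the 6 h or the 24 h arrays are given here as values only. Spib was read at 10.14 and 10.40 at time 0, at 10.72 and 10.85 after 6 h and at 12.20 and 12.18 after 24 h of 4OHT, with 9.68 and 9.69 after 24 h without 4OHT. S1pr1 was read at 6.55 and 6.85 at time 0, at 7.04 and 6.91 after 6 h and at 8.94 and 8.51 after 24 h, with 6.69 and 6.66 without 4OHT. Of these arrays, those after 24 h of 4OHT were the highest for both genes. Dock9 ran the other way, with 12.47 and 12.69 at time 0, 10.81 and 11.18 after 6 h and 9.30 and 9.25 after 24 h, and 11.93 and 12.06 without 4OHT. Igfbp7 was likewise lowest after 24 h of 4OHT among the arrays with IL-7, and it was read at 10.75 and 10.60 in the 24 h cultures without it.

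Cish and Mpzl2 instead peaked at 6 h. Cish stood at 8.27 and 8.27 at time 0 and came back to 8.78 and 8.57 after 24 h of 4OHT, with 9.52 and 9.58 after 24 h without 4OHT. Mpzl2 stood at 7.69 and 8.40 at time 0 and at 8.80 and 8.78 after 24 h without 4OHT. Bcl6, a transcriptional repressor of B cells, had its lowest values at 6 h. Its values were 10.16 and 10.05 at time 0, 7.74 and 7.71 after 6 h and 8.74 and 8.82 after 24 h of 4OHT, with 8.86 and 8.66 after 24 h without 4OHT. For Bcl6, arrays with and without 4OHT overlapped at 24 h.

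**Figure D2:**
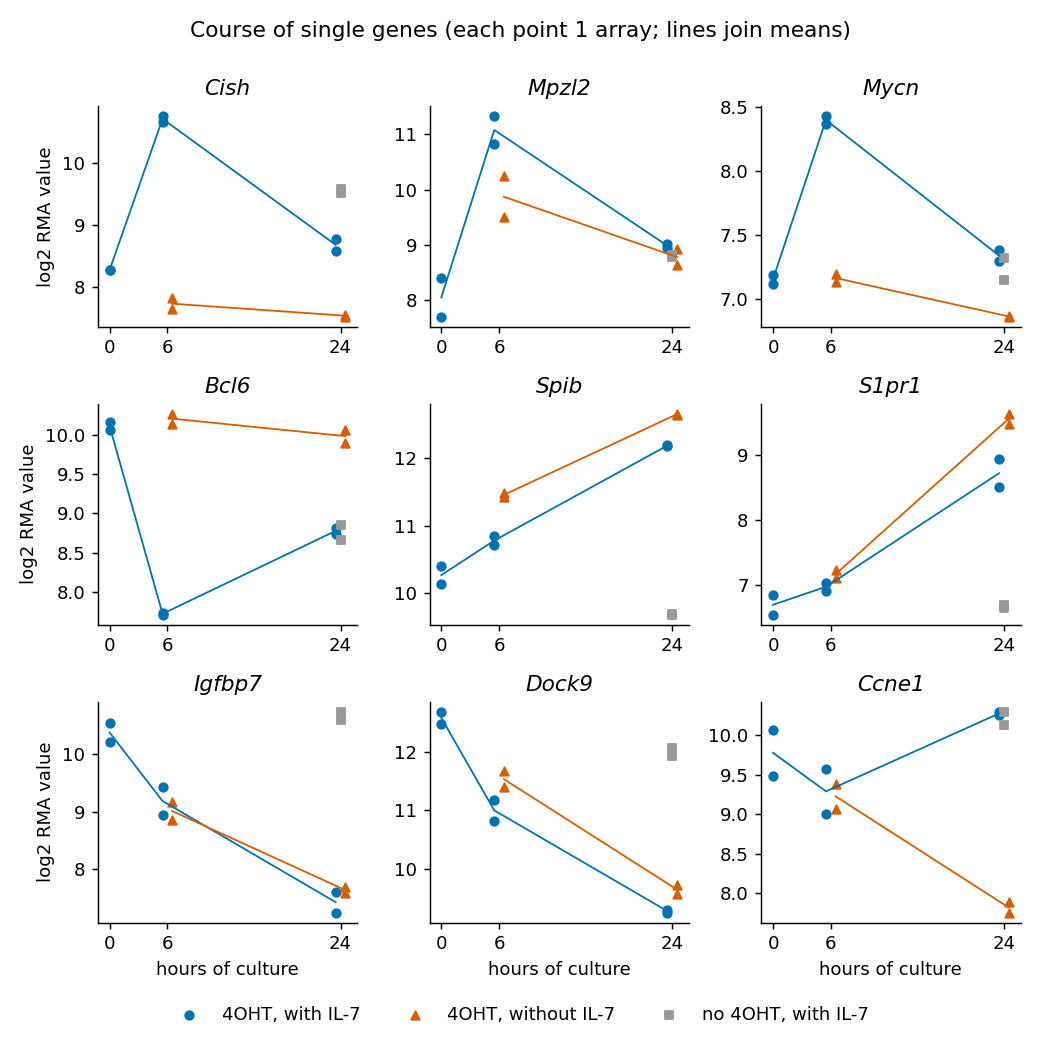
Log2 values of 9 genes against hours of culture. Each point is 1 array and lines join group means; blue circles are 4OHT with IL-7 (starting from time 0 cells, which had no 4OHT), orange triangles 4OHT without IL-7, and grey squares 24 h with IL-7 and no 4OHT. Cish, Mpzl2 and Mycn peak at 6 h in blue, Bcl6 is lowest there, Spib and S1pr1 are highest at 24 h of 4OHT, and Ccne1 lies at 10.30 and 10.25 at 24 h with IL-7, against 7.76 and 7.88 without it.

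Among 17 measured targets of IL-7 and STAT5, 6 fell and 1 rose, against the 2.03% and 1.63% of all genes given above. The list's median difference was -0.28, against -0.01 for all genes. For 6 h of 4OHT minus time 0 its median was 0.68, and for 24 h with minus 24 h without 4OHT it was -0.02. Over all genes these medians were -0.02 and -0.04. Beside Cish, Lfng, a glycosyltransferase that modifies Notch, fell by 1.09 ± 0.16, with 9.43 and 9.37 after 24 h, against 10.30 and 10.67 after 6 h. Mycn, a Myc family transcription factor, fell by 1.06 ± 0.09, with 7.30 and 7.38 after 24 h, against 8.36 and 8.43 after 6 h. Myc itself fell by 0.60 ± 0.11, with 12.63 and 12.66 after 24 h, against 13.30 and 13.18 after 6 h. Groups did not overlap in these genes. Socs3, a cytokine signalling inhibitor, and Osm, the cytokine oncostatin M, fell by 0.33 ± 0.07 and 0.28 ± 0.07, and Bcl6, which STAT5 is known to repress, rose by 1.05 ± 0.09 (adjusted p = 8.31e-05). The survival kinase gene Pim2 (-0.60 ± 0.15, adjusted p = 0.0568) and Socs2 (-0.41 ± 0.12, adjusted p = 0.0909) did not pass, and did with the block (0.00477 and 0.0213). With the block 9 of the 17 fell and 2 rose, against 907 and 912 of all 19938 genes. Leaving out single arrays gave 3 to 5 falls, and the count was 3 without either 24 h array or the 6 h array of experiment 1.

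Related signalling lists held scattered calls, to be read against the 2.03% of all genes that fell and the 1.63% that rose. In the 19 immediate early genes, 3 fell and none rose: the orphan nuclear receptors Nr4a1 (-0.87 ± 0.11) and Nr4a3 (-0.76 ± 0.11), and Myc. With the block 5 fell. Dusp5, a phosphatase of ERK, fell by 0.97 ± 0.12 and Spry1, a Sprouty inhibitor of RAS signalling, by 0.59 ± 0.14, while Dusp10, a phosphatase of p38 and JNK, rose by 0.89 ± 0.15, among 16 feedback genes of PI3K, RAS and MAPK signalling. Of 12 Notch targets 2 fell, Lfng and the repressor Hes1 (-0.97 ± 0.12). Of 12 estrogen response genes 2 fell, Cited2 (-0.45 ± 0.11) and Igfbp4 (-0.38 ± 0.09), and none rose. No member passed among 15 NF-kappaB response genes, where unadjusted p-values under 0.05 numbered 1 higher and 2 lower, and 1 rose with the block.

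Of 17 pre-B receptor signalling genes 5 rose and none fell, against 1.63% and 2.03% of all genes. The median difference was 0.11. Fcgr2b, the inhibitory Fc receptor, was read at 11.27 and 10.99 after 24 h, against 10.13 and 9.87 after 6 h, a rise of 1.13 ± 0.17 (adjusted p = 0.00292). Prkcb, a protein kinase C that links the receptor to NF-kappaB, was read at 10.37 and 10.07 after 24 h, against 9.31 and 9.37 after 6 h, a rise of 0.88 ± 0.11. Syk, the kinase that starts receptor signalling, rose by 0.55 ± 0.10, Pik3ap1, an adaptor for PI3K, by 0.41 ± 0.09 and Cd22, an inhibitory co-receptor, by 0.40 ± 0.08. Arrays of the 2 times did not overlap in any of the 5 genes. With the block 7 rose. The count fell to 1 without the 24 h array of experiment 1, to 2 without that of experiment 2 or without the 6 h array of experiment 1, and to 3 without the 6 h array of experiment 2.

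Of 7 chains of the pre-B receptor, 1 fell and none rose. This was Vpreb2, with 9.02 and 8.96 after 24 h, against 9.43 and 9.40 after 6 h. With the block Cd79a, a signalling chain, rose beside it. Among 20 markers of small pre-B and later B cells, Spib and Cd22 rose and none fell, and with the block 3 rose and 1 fell. Among 11 V(D)J recombination genes, Lig4, the ligase that joins DNA ends, rose by 0.62 ± 0.12, and none fell, while 2 rose and 1 fell with the block. None of 15 pro-B and early precursor markers passed with limma, and unadjusted p-values under 0.05 numbered 1 higher and 1 lower. Receptors of cell migration added S1pr4, a second sphingosine-1-phosphate receptor, with a rise of 0.46 ± 0.10. Thus 2 of 16 rose and none fell, and with the block 3 rose and 1 fell. Over all genes 1.63% rose and 2.03% fell without the block.

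Of 30 B lineage transcription factors, 3 rose and 3 fell, against 1.63% and 2.03% of all genes. Beside Spib and Bcl6, Tcf3, the E2A factor needed for B cell commitment, rose by 0.56 ± 0.07, with 11.28 and 11.18 after 24 h, against 10.70 and 10.64 after 6 h. A pair of other Ikaros family genes fell. Ikzf4, which encodes Eos, was read at 7.14 and 7.28 after 24 h, against 8.36 and 7.96 after 6 h (-0.95 ± 0.12), and Ikzf2, which encodes Helios, at 7.95 and 7.94 after 24 h, against 8.55 and 8.54 after 6 h (-0.60 ± 0.13). Runx1 fell by 0.52 ± 0.09. With the experiment as a block 8 factors rose. Foxo1, a driver of recombinase expression, was 0.47 ± 0.12 higher without passing in the fit without the block (adjusted p = 0.0622, and 0.0103 with the block). Without single arrays 1 or 2 factors fell and 3 or 4 rose.

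Of 22 FoxO targets 3 rose and 2 fell, against 1.63% and 2.03% of all genes, and with the block 7 rose and 2 fell. Trib2, a pseudokinase, rose by 0.62 ± 0.08 and Cdkn1b, the cell cycle inhibitor p27, by 0.43 ± 0.10, with Bcl6 as the third. Tnfsf10, the death ligand TRAIL, fell by 0.82 ± 0.12, and Cited2 was the other fall. Adhesion genes held Itga1, the alpha 1 integrin, with a rise of 0.92 ± 0.13, and falls in Mpzl2 and the tetraspanin Cd9 (-0.61 ± 0.10), out of 27, and with the block 4 rose and 4 fell.

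Of 34 measured genes of DNA replication 16 rose after 24 h and none fell, with a list median of 0.59 against -0.01 for all genes. Over all genes 1.63% rose and 2.03% fell. All 34 had a difference above 0, from 0.21 for the helicase subunit gene Mcm6, which did not pass (adjusted p = 0.682), to 0.98 for Uhrf1, which maintains DNA methylation at replication. Uhrf1 was read at 10.89 and 10.85 after 24 h, against 10.14 and 9.66 after 6 h. Cdc6, which loads the helicase at origins, was read at 9.14 and 8.85 after 24 h, against 8.34 and 7.98 after 6 h. Of the 4 arrays, the 6 h array of experiment 2 was the lowest for both genes. The median of the 34 genes was -0.28 for 6 h of 4OHT minus time 0. For 24 h with minus 24 h without 4OHT it was -0.06, and no member passed. Over all genes these medians were -0.02 and -0.04.

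Cdc6 rose by 0.84 ± 0.15 (adjusted p = 0.00907), Lig1, the ligase that seals replicated strands, by 0.82 ± 0.19 (adjusted p = 0.0307), and Cdc45, a part of the active helicase, by 0.82 ± 0.16 (adjusted p = 0.0141). The mean over the 34 genes was 10.91 and 10.90 in the 24 h arrays, against 10.52 and 10.12 in the 6 h arrays of experiments 1 and 2. The number that rose depended on which single array was left out. Such a fit leaves 1 array in a group, which widens the SE, and has no block, so its count also reflects lost precision. The number was 30 with the experiment as a block and 4 after centring each array on its median.

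Of 17 genes for cyclins D and E, their kinases and E2F factors, 4 rose and 1 fell, against 1.63% and 2.03% of all genes. With the block 9 rose and 2 fell. E2f2, an activating E2F factor, was read at 10.95 and 10.79 after 24 h, against 9.68 and 9.17 after 6 h, a rise of 1.45 ± 0.19 (adjusted p = 0.00165). Ccne1, or cyclin E1, which starts S phase, rose by 0.98 ± 0.20, with a mean of 10.27 ± 0.03 after 24 h, against 9.29 ± 0.41 after 6 h (SD, n = 2 each). E2f1 rose by 0.65 ± 0.11 and Ccnd3, the D cyclin that pre-B cells need, by 0.51 ± 0.07, while Ccnd1 fell by 0.40 ± 0.09. Without single arrays 2 to 8 members rose, with 2 without either 24 h array or the 6 h array of experiment 2, and 8 without the 6 h array of experiment 1.

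Of 30 G2/M and mitosis genes, 2 rose, the proliferation antigen Mki67 (0.32 ± 0.08) and the separase gene Espl1 (0.61 ± 0.14), and none fell. Over all genes 1.63% rose and 2.03% fell. For 6 h of 4OHT minus time 0 the median of the 30 was -0.14, and for 24 h with minus 24 h without 4OHT it was 0.08. For 24 h minus 6 h the median was 0.42, all 30 differences lay above 0, and with the block 25 rose. None passed without either 24 h array or without the 6 h array of experiment 2. Of 9 cyclin-dependent kinase inhibitors and pocket proteins 3 rose, Cdkn2d, the p19 inhibitor, by 0.52 ± 0.12, Rb1, the retinoblastoma protein, by 0.46 ± 0.08, and Cdkn1b. With the block 5 rose. None rose without the 24 h array of experiment 1, and 1 rose without that of experiment 2 or without the 6 h array of experiment 2.

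The promoters of 3 replication genes that rose are shown because they hold letters bound by E2F factors. RefSeq windows of 300 bases (build GRCm38.p6, around the transcript start) were searched on both strands for TTTCCCGC, whose reverse complement is printed in capitals. The letters stood in 6 of the 28 replication genes with a window (21.4%), against 1.24% of all 27025 genes. The search was chosen after the values were seen, and a match is not evidence of binding. The windows are at chr11:98907901-98908200 (plus strand) for Cdc6, chr1:20820263-20820562 (minus strand) for Mcm3, a helicase subunit, and chr5:151651159-151651458 (minus strand) for Rfc3, a clamp loader subunit. Mcm3 rose by 0.60 ± 0.15 and Rfc3 by 0.56 ± 0.12.
Cdc6: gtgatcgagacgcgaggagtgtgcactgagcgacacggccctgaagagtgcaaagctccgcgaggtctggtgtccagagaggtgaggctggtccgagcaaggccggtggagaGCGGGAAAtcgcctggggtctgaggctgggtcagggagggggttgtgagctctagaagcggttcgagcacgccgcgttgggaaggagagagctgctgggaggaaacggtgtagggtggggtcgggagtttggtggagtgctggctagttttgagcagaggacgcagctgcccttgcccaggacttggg
Mcm3: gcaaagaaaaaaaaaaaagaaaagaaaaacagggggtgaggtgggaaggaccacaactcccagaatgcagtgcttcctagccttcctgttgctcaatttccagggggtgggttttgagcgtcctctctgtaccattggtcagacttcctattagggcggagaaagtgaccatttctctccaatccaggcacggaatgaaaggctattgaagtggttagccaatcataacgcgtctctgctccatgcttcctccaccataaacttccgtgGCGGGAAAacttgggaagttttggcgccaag
Rfc3: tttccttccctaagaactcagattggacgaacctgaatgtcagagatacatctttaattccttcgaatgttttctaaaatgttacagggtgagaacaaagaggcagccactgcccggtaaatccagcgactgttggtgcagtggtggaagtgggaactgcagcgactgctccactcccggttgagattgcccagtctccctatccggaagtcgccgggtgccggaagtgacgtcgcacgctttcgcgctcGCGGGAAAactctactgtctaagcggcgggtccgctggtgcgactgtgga

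The same windows were searched for the letters TGGGAA, the core of Ikaros recognition, in the genes with the largest differences. A window was found for 24 of the 28 genes. The letters stood in 4 of 12 genes that rose and in 5 of 12 that fell, against 28.3% of all genes with a window. A RefSeq window is shown for 1 gene of each direction with the letters in capitals, at chr7:118584637-118584936 (minus strand) for Tmc7 and chr9:7272264-7272563 (plus strand) for Mmp13.
Tmc7: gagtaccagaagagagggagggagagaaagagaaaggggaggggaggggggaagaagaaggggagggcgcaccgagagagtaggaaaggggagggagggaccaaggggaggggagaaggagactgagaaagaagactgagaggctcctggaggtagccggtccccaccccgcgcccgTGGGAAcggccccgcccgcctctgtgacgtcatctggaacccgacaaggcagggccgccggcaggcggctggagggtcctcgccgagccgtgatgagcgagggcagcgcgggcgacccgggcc
Mmp13: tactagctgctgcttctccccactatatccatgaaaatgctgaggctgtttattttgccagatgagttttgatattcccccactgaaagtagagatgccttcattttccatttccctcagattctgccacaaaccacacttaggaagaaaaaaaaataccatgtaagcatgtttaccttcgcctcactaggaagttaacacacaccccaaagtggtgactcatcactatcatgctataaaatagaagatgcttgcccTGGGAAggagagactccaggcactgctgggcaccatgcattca

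Of 30 genes of ribosome biogenesis and RNA polymerase I, 5 fell and none rose after 24 h, against 2.03% and 1.63% of all genes. The median difference was -0.25, with 3 members above 0. Rrp9, which processes ribosomal RNA, was read at 9.55 and 9.52 after 24 h, against 10.32 and 9.98 after 6 h, and fell by 0.62 ± 0.13. Polr1b, the second largest subunit of RNA polymerase I, was read at 10.82 and 10.84 after 24 h, against 11.45 and 11.25 after 6 h, and fell by 0.52 ± 0.10. The other falls were Rrp12 (-0.49 ± 0.12), the nucleostemin gene Gnl3 (-0.39 ± 0.10) and Polr1a (-0.34 ± 0.09). With the block 13 fell. None fell after median centring, without either 24 h array or without the 6 h array of experiment 1, and 5 fell without the 6 h array of experiment 2.

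Most metabolic lists held few calls, to be read against the 1.63% of all genes that rose and the 2.03% that fell. Mthfd2, a folate enzyme of mitochondria, rose by 0.79 ± 0.15 as the single call among 23 nucleotide and polyamine genes, and Aldoc, an aldolase, fell by 0.74 ± 0.11 among 18 glycolysis genes. Herpud1, a factor of endoplasmic reticulum-associated degradation, rose by 0.58 ± 0.10 among 19 chaperone genes. Rpl12 (-0.44 ± 0.09) was the single call among 22 cytoplasmic ribosomal protein genes, and Tfeb, which drives lysosome genes, rose by 0.46 ± 0.07 while Gaa, the lysosomal alpha-glucosidase, fell by 0.45 ± 0.08 among 26 lysosome and autophagy genes. With the block, glycolysis had 4 falls, nucleotide and polyamine synthesis 3 rises and 1 fall, endoplasmic reticulum chaperones 3 rises, and lysosome and autophagy genes 2 rises and 2 falls. Oxidative phosphorylation had no call by limma in 29 genes, nor an unadjusted p under 0.05.

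Among markers of other cell types, Lat, a T cell adaptor, fell by 0.84 ± 0.15 and Klrb1f, a natural killer receptor, by 0.67 ± 0.12. With the block 1 T cell marker rose and 2 natural killer cell markers fell. Mzb1, a chaperone of antibody-producing cells, rose by 0.43 ± 0.07 and Derl3, a protein of endoplasmic reticulum-associated degradation, by 0.62 ± 0.12. They were 2 of 11 plasma cell markers, while 1.63% of all genes rose. The mean over the plasma cell markers was 8.49 and 8.50 after 24 h, against 8.45 and 8.52 after 6 h. A part of plasma cells in the rises of single B cell genes, such as Fcrla and Spib, was not tested.

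**Figure D3:**
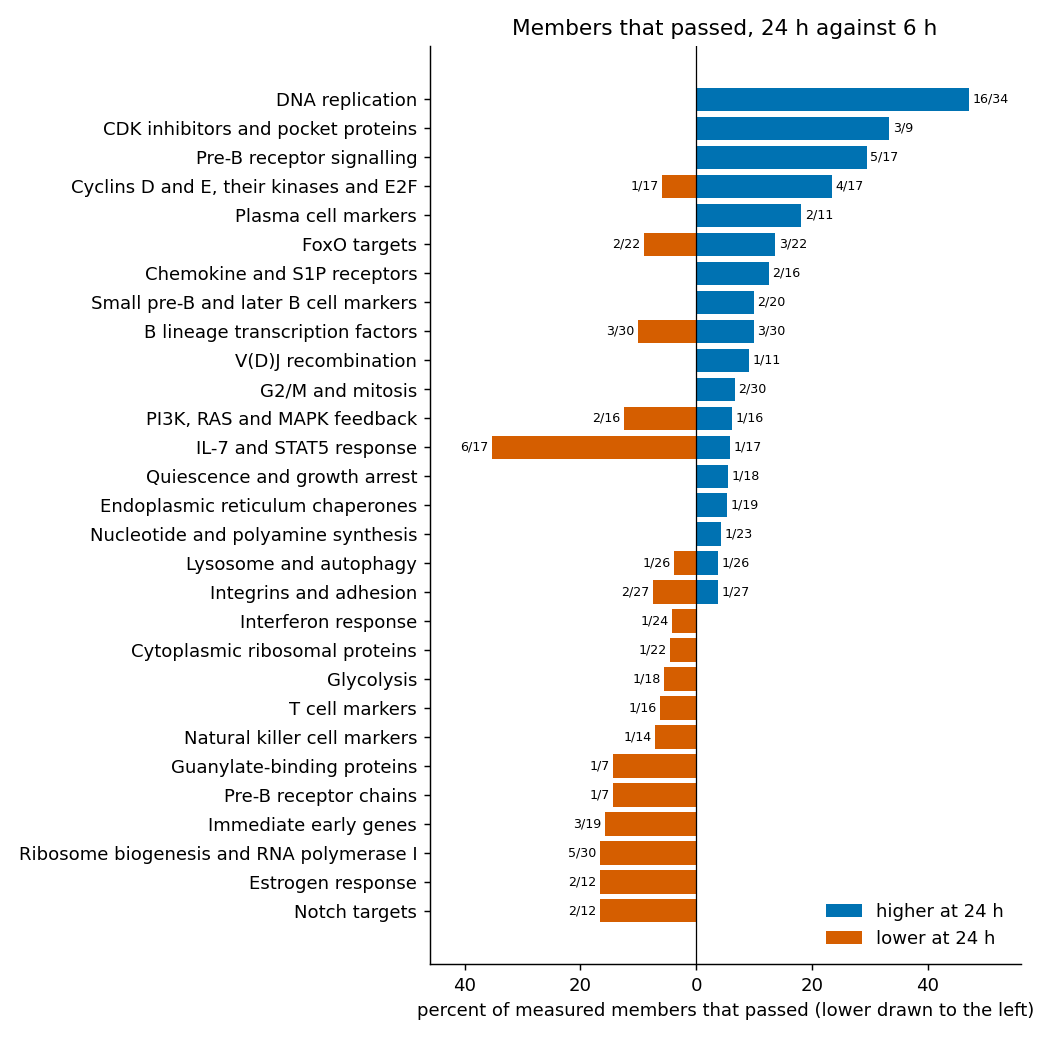
Percent of each gene list's measured members that passed limma between 6 h and 24 h of 4OHT with IL-7, higher at 24 h drawn to the right in blue and lower to the left in orange, with counts over members measured. DNA replication holds the most rises (16 of 34) and the IL-7 and STAT5 response the most falls (6 of 17); lists with no call are left out.

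Whether the change from 6 h to 24 h depended on IL-7 was tested as the 24 h minus 6 h difference with IL-7 minus the same difference without IL-7, which share no array. The test found 727 genes with a higher difference with IL-7 (3.65%) and 271 with a lower one (1.36%), so that 72.8% were higher, and 84.8% after median centring (519 and 93 genes). With the experiment as a block the counts were 1193 and 779. Without IL-7 the change itself comprised 1019 rises (5.11%) and 1358 falls (6.81%), and 1753 and 1974 with the block. Leaving out single arrays gave 469 to 691 genes with a higher difference, with 469 without the 24 h array of experiment 1 with IL-7 and 481 without the 6 h array of experiment 1 without IL-7. The lower count ranged from 110 to 205.

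The 6 largest positive differences were in genes that fell without IL-7. Chek1, the S phase checkpoint kinase, was read with IL-7 at 11.03 and 10.94 after 24 h, against 10.44 and 9.94 after 6 h. Without IL-7 it was read at 7.69 and 7.82 after 24 h, against 9.91 and 9.40 after 6 h. The Chek1 change thus differed by 2.70 ± 0.28 (adjusted p = 0.000177), while with IL-7 alone it was 0.80 ± 0.20 (adjusted p = 0.0503, and 0.0018 with the block). Fancd2 of DNA crosslink repair differed by 2.85 ± 0.34, Ncapg2, a condensin subunit, by 2.77 ± 0.20, Kntc1, a kinetochore protein, by 2.75 ± 0.24, and Mastl, a mitotic kinase, by 2.73 ± 0.36. Shcbp1, a protein that binds the adaptor Shc, differed by 2.77 ± 0.35.

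For DNA replication 33 of 34 genes had a higher difference with IL-7 and none a lower one, with a median of 1.44, against -0.03 for all genes. Across the alternatives, single arrays left out included, this count was 30 to 34. Gins4, a subunit of the replicative helicase, was the one that did not pass (0.58, adjusted p = 0.159, and 0.0185 with the block). Without IL-7, 32 of the 34 fell between 6 h and 24 h and none rose, with a median of -0.91. Of the G2/M and mitosis genes 29 of 30 had a higher difference with IL-7, with a median of 1.97, and 10 of 17 genes of the cyclin and E2F list did. Cdc25b was the G2/M gene that did not pass (0.77, adjusted p = 0.0513, and 0.00695 with the block).

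**Figure D4:**
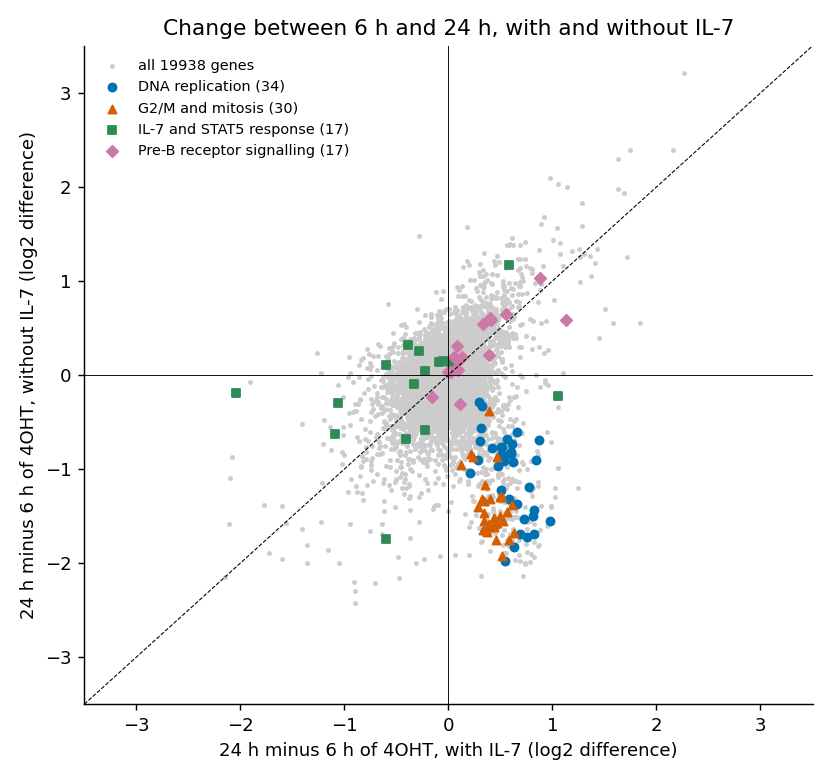
Change between 6 h and 24 h of 4OHT with IL-7 (horizontal, log2 difference) against the change without IL-7 (vertical) for 19938 genes in grey; the dashed line marks equal changes. DNA replication (blue circles) and G2/M genes (orange triangles) sit right of 0 and below 0; the IL-7 and STAT5 list is drawn as green squares, with Cish at -2.04 with IL-7 and -0.19 without it, and pre-B receptor signalling as pink diamonds.

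Negative differences by IL-7 included Cish, whose fall with IL-7 exceeded the change without it (-0.19 ± 0.08) by 1.85 ± 0.12 (adjusted p = 2.19e-05). Cish without IL-7 was already low, with 7.55 and 7.51 after 24 h, against 7.63 and 7.82 after 6 h. Sema6d differed by -1.50 ± 0.24, Camk2d, a calcium-dependent kinase, by -1.34 ± 0.13 and Fam135b by -1.24 ± 0.28. Pcp4, a calmodulin-binding protein, (-1.77 ± 0.34) and Tfrc, the transferrin receptor, (-1.40 ± 0.22) did not pass with IL-7 (-0.28 ± 0.24 and 0.18 ± 0.16) and rose without it (1.48 ± 0.24 and 1.58 ± 0.16). Within the IL-7 and STAT5 list, Mycn (-0.76) and Osm (-0.54) also had lower differences (6 members with the block), and Bcl6 (1.27) and Myc (1.14) had higher ones. Myc without IL-7 was read at 9.31 and 9.43 after 24 h, against 11.31 and 10.92 after 6 h. Ikzf4 differed by -0.98 (adjusted p = 0.00475).

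Of the 325 genes that rose with IL-7, 142 also rose without it (43.7% of the 325 and 13.9% of the 1019) and 103 fell without it (31.7% and 7.58% of the 1358). Of the 404 that fell with IL-7, 178 fell without it (44.1% and 13.1%) and 15 rose (3.71% and 1.47%). The IL-7 difference passed in the same direction for 135 of the 325 rises and 91 of the 404 falls, and in the opposite direction for 7 and 18. That test contains the 24 h minus 6 h difference by which these genes, and the 14 largest each way, were picked. Calls in the same direction are thereby favoured. The changes with and without IL-7 correlated at r = 0.149 across all genes, which share 1 fit and 1 cell line. Of the 14 largest rises 12 also rose without IL-7, and the difference by IL-7 passed for Fcrla (1.28 ± 0.19) and E2f2 (1.05 ± 0.27). With the block Pfn2 (adjusted p = 0.0299) and E2f2 (0.00959) also rose without IL-7, and the IL-7 difference of Pfn2 passed (1.02, adjusted p = 0.0127). S1pr1 rose by 2.39 ± 0.13 without IL-7, and its difference of -0.64 ± 0.19 did not pass (adjusted p = 0.0823, and 0.0401 with the experiment as a block). Of the 14 largest falls 10 also fell without IL-7, among them Dock9 (-1.89 ± 0.13), Ifitm3 (-1.58 ± 0.11) and Tbx19 (-1.39 ± 0.10). With the block Mmp13 also fell without IL-7 (adjusted p = 0.00351), and the IL-7 differences of Mmp13 (-1.21, adjusted p = 0.00716), Mpzl2 (-1.01, adjusted p = 0.0269) and Eno3 (0.64, adjusted p = 0.0241) passed.

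The change between 6 h and 24 h of 4OHT was then set against 24 h of culture without 4OHT (24 h minus time 0, with IL-7), which shares no array with it. The first change starts at 6 h of 4OHT and the second at time 0. A gene that had moved by 6 h can therefore differ here while its 24 h values with and without 4OHT are alike. The culture change comprised 147 rises (0.737%) and 470 falls (2.36%), and 630 and 1426 with the block. The difference between both changes was higher for 479 genes (2.4%) and lower for 336 (1.69%), a share of 58.8% higher that became 46.4% after renewed quantile normalization (399 and 460 genes). With the experiment as a block the counts were 1222 and 754. Leaving out single arrays gave 147 to 547 higher and 147 to 349 lower differences. The higher count was 147 without the 24 h array of experiment 1 and 307 without that of experiment 2 under 4OHT, 207 without the 6 h array of experiment 1, 171 without the 24 h array of experiment 2 without 4OHT and 190 without time 0 of experiment 2. The lower count without these same arrays was 147, 184, 147, 202 and 162. Of the 325 rises 168 had a higher difference here and of the 404 falls 194 a lower one, tests that contain the 24 h minus 6 h difference itself.

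The largest positive values were Cpm (3.02 ± 0.33), Gbp4 (2.48 ± 0.29), Bcl6 (2.40 ± 0.12), Gbp11 (2.07 ± 0.21), Rubcnl (2.06 ± 0.15) and Gbp9 (2.01 ± 0.28). Cpm rose under 4OHT and fell in culture without it, where it was read at 8.78 and 8.10 after 24 h, against 9.63 and 9.86 at time 0. The guanylate-binding proteins, interferon-induced GTPases, did not pass between 6 h and 24 h of 4OHT apart from Gbp5 (-0.41 ± 0.09; 2 of 7 fell with the block), which lay below 6.2 in the 4 arrays. Gbp4 was read at 7.14 and 7.22 after 24 h, against 6.91 and 7.05 after 6 h. In culture without 4OHT it was read at 7.69 and 7.54 after 24 h, against 10.25 and 9.54 at time 0, a culture change of -2.28.

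The largest negative values were Cish (-3.32 ± 0.12), Mpzl2 (-2.85 ± 0.42), Lfng (-2.20 ± 0.22), Igfbp7 (-2.06 ± 0.26), Epb41l4b, a protein of the band 4.1 family (-2.01 ± 0.20), and Ifitm1, an interferon-induced membrane protein (-1.93 ± 0.25). Cish and Lfng fell between 6 h and 24 h of 4OHT and rose between time 0 and 24 h without it (1.28 ± 0.08 and 1.11 ± 0.16). Lfng had risen from 8.32 and 8.48 at time 0 to 10.30 and 10.67 after 6 h of 4OHT. After 24 h it was read at 9.43 and 9.37 with 4OHT, against 9.55 and 9.47 without it. Epb41l4b was then read at 9.95 and 9.81 with 4OHT, against 10.00 and 10.18 without it. In the DNA replication list no member passed this test with limma (1 with the block), and the median was 0.19. The median culture change without 4OHT was 0.40 in that list, with no member passing and 21 passing with the block. Of the ribosome biogenesis genes 14 had a lower difference (23 with the block) and none a higher one, with a median of -0.54. Their median was 0.44 for 6 h of 4OHT minus time 0, and -0.11 for 24 h with minus 24 h without 4OHT. Of 29 cholesterol and fatty acid synthesis genes 15 had a higher difference, with a median of 0.62, although none passed limma's test between 6 h and 24 h of 4OHT, where 6 were higher by unadjusted p-values under 0.05 and 2 rose in the blocked fit. Of these, Sqle, which oxidises squalene, was read at 10.44 and 10.31 after 24 h, against 9.84 and 10.01 after 6 h (0.45 ± 0.13, adjusted p = 0.0764, and 0.0339 with the block). In culture without 4OHT 14 of the 29 fell, against 2.36% of all genes, and none rose. The median of the 29 was already -0.63 for 6 h of 4OHT minus time 0. For 24 h with minus 24 h without 4OHT it was -0.004.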

How the data were processed

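Gene expression was measured on 14 Affymetrix arrays in 7 groups of 2, with groups and experiment numbers read from the sample titles. Per the labels, biotin-labelled targets were made from 150 ng of total RNA. The submitters' processing notes name Expression Console 1.1 and RMA, and the authors deposited log2 values for 35556 probe sets, used as they stand. Other settings and the genome build are not stated in these sources. RMA makes changes relative to the bulk of the genes. No scanner intensities were used, so detection limits were not read.

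The annotation table lists 23410 probe sets, 21789 with 1 symbol and 1621 with several; 12146 are unlisted. The 21789 gave 19938 genes, of which 999 had several probe sets and the one with the highest mean was used. limma 3.58.1 in R 4.3.3 was fitted once over the 14 arrays with a mean per group (7 residual and 4.83 prior degrees of freedom), with two-sided tests and Benjamini-Hochberg adjustment over all genes at 0.05. It was tested first on simulated data with independent noise per array and no effect of the experiment. That simulation does not cover the pairing of the arrays given next. The series' design text calls exp1 and exp2 independent experiments, and deviations of same-numbered arrays correlated in all 21 pairs of groups (0.124 to 0.631, and 0.368 for 24 h and 6 h), so the numbers pair the arrays. The chosen fit has no block, and a fit with the block was run for every comparison. No 2 arrays held identical values. Replicates are experiments on 1 line. Without the block, p-values rest on the spread of arrays within groups, pooled over the 7 groups. That spread includes shifts shared by the arrays of 1 experiment, which the block removes.

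The genes named are the 14 largest rises and 14 largest falls (6 each way for the 2 tests of a difference) among genes that passed, moved alike in both experiments and exceeded the median of all values in the higher group, without predicted genes, receptor segments, olfactory receptors and small RNAs. Up to 4 passing members each way stand for a list, and further members were named after their values were seen. The members and the 43 lists were chosen with earlier results of these data known. Lists are described by counts and medians, without a test. Alternatives were the block, renewed quantile normalization, median centring, no dim genes, the mean of a gene's probe sets, a trended robust prior, the 4 arrays alone and single arrays left out. Promoters and microRNAs come from RefSeq (GRCm38.p6).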

Additional observations from a re-analysis of the deposited data

Results flagged for a closer look

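No group has 4 or more arrays, so single arrays were not screened as outliers. A change between 6 h and 24 h of 4OHT that differs with IL-7 was found for 727 genes in the higher and 271 in the lower direction, tested as the difference of both changes with limma. The largest were Fancd2 (2.85), Shcbp1 (2.77), Ncapg2 (2.77), Kntc1 (2.75), Mastl (2.73) and Chek1 (2.70) in the higher direction, each changing in the same direction in both experiments. In the lower direction they were Cish (-1.85), Pcp4 (-1.77), Sema6d (-1.50), Tfrc (-1.40), Camk2d (-1.34) and Fam135b (-1.24). Of these, Fam135b missed the threshold in 7 of 14 alternatives.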

How the results depend on the processing

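None of the genes named for the largest differences changed direction in the alternatives run. Of the 14 largest rises and 14 largest falls, 326 of 336 checks (12 alternatives each) kept their side of the threshold and 10 lost it, all on leaving out an array. For the 12 genes of the IL-7 difference 161 of 168 checks did, the rest being Fam135b (adjusted p 0.0511 to 0.0849), and for the 12 genes of the culture comparison all 120 did. Counts ranged as follows. For 24 h against 6 h, 325 rises and 404 falls became 912 and 907 with the replicate block, 182 and 194 with median centring, 1046 and 1012 on the 4 compared arrays with the replicate block, and 80 to 287 rises and 127 to 231 falls with single arrays left out. For the IL-7 difference, 727 and 271 became 1193 and 779 with the replicate block, 93 in the lower direction with median centring, and 469 to 691 and 110 to 205 with single arrays left out. For the culture comparison, 479 and 336 became 1222 and 754 with the replicate block, and 147 to 547 and 147 to 349 with single arrays left out. Blocking kept every call of the genes named for the largest differences in the comparison they were named for. The share of rises was 44.6%, but 57.2% without the 6 h array of experiment 1 and 33.8% without that of experiment 2. Where an array was left out, the lone array was taken to vary like the other groups. Detection limits of dim genes were not measured.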

Other observations

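Families not among the lists were counted after the values were seen. Of 25 measured genes of the Fanconi pathway and homologous recombination, 10 rose between 6 h and 24 h of 4OHT with IL-7 and none fell. Over all genes 1.63% rose and 2.03% fell. The family's median was 0.49, with 17 rises under the experiment block. Brca1, which directs repair by recombination, was read at 9.96 and 9.87 after 24 h, against 9.06 and 8.66 after 6 h, a rise of 1.05 (limma adjusted p = 0.004). At time 0 it was read at 9.76 and 9.45, and after 24 h with IL-7 and without 4OHT at 9.96 and 9.82. Its 24 h values with and without 4OHT were thus alike. The IL-7 difference was higher in 19 of the 25 and lower in none, against 3.65% and 1.36% of all genes.

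Of 8 immunoglobulin kappa variable segments, 2 rose, against 1.63% of all genes. Igkv10-96 was read at 7.82 and 8.31 after 24 h, against 5.75 and 6.06 after 6 h (2.16, adjusted p = 0.000643), and Igkv9-120 at 7.84 and 7.50 after 24 h, against 6.10 and 5.98 after 6 h (1.63, adjusted p = 0.000381). The other 6 did not pass, and 1 of them rose with the block (3 rises in all). Related segments can share probes, so which segment is read is uncertain.

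Probe sets of the microRNA cluster transcribed from Mir17hg, which Myc is known to induce, read precursor transcripts, and mature microRNAs were not measured. Of 6 measured, Mir17hg fell by 0.68 (adjusted p = 0.00675) and Mir19a by 0.90 (adjusted p = 0.0253), none rose, the median was -0.68, and 5 fell with the block. Mir19a was read at 7.74 and 7.41 after 24 h, against 8.53 and 8.43 after 6 h. The mature sequences are shown because they fall into seed families (bases 2 to 8 in capitals), miR-17 with miR-20a and miR-19a with miR-19b.
mmu-miR-17-5p: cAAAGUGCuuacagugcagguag
mmu-miR-20a-5p: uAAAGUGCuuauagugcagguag
mmu-miR-19a-3p: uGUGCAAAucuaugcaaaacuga
mmu-miR-19b-3p: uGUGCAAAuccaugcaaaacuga

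Slc7a11, the cystine transporter, had a difference of -2.15 ± 0.78 that did not pass (adjusted p = 0.201) but did with the experiment as a block (4.99e-05), with 7.11 and 6.37 after 24 h, against 9.60 and 8.16 after 6 h.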
